A study of Mus musculus with 18 samples.

Results

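The sterol and fatty acid synthesis genes are 32 genes of the enzymes and regulators with which a cell makes cholesterol and long-chain fatty acids. They were chosen by name, and all 32 of 32 were among the 20878 genes of the expression matrix. By role, 8 act in the mevalonate steps, 11 between squalene and cholesterol, 4 in control and sterol transport, and 9 in fatty acid synthesis. All of them passed the filter on low values in every comparison.

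Values came from RNA sequencing of 18 tumors grown from K7M2, an osteosarcoma line derived from a Balb/c mouse. The cells carried either an shRNA against Atrx, which encodes a chromatin remodeler (ATRX KD), or a control shRNA (ATRX CT), both delivered by lentivirus, so every tumor had been through transduction. They were injected under the skin of female Balb/c mice, which have a full immune system, or female NSG mice (NOD.Cg-Prkdc scid Il2rg tm1Wjl/SzJ), which lack T, B and NK cells, at 6 to 8 weeks of age. The 4 groups held 4 Balb/c ATRX CT, 4 Balb/c ATRX KD, 5 NSG ATRX CT and 5 NSG ATRX KD tumors, each from another mouse. Whole cages of 5 mice were given 1 kind of cells, so cage and knock-down cannot be told apart. Host strain and immune status cannot be told apart either. Nothing in the labels gives independent knock-down clones or transductions, and p-values measure the spread between these mice only.

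Levels are given in FPKM (fragment counts divided by transcript length and by library size), taken back from deposited log2(FPKM + 1), and differences as differences in log2(FPKM + 1), where 1 unit is close to a doubling for genes at these levels. A gene is said to have changed, risen or fallen only where limma's adjusted p over all genes tested was under 0.05. In NSG mice Atrx itself was at 17.6 ± 4.99 FPKM with the control shRNA and at 10.2 ± 3.47 with the shRNA against it (SD, n = 5 tumors per group; exact permutation test, two-sided, p = 0.0317). Its groups overlapped, with the highest ATRX KD tumor at 16.4 and the lowest ATRX CT tumor at 11.6, and it did not pass in limma (difference -0.74, adjusted p = 0.0610). In Balb/c mice it was at 17.6 ± 7.12 and 13.95 ± 6.54 (SD, n = 4 each), with overlapping groups (exact permutation test, two-sided, p = 0.486), so the knock-down could not be checked there at this spread. The Atrx transcript is long, at 10244 bases, and the bias along transcript length given below was not removed from these values. The paper reports loss of the ATRX protein by western blot in the transduced K7M2 cell line. Depth was estimated at 14700000 to 25250000 fragments per library. Of the osteoblast markers, Col1a1, Spp1 and Runx2 were expressed in every tumor, whereas Sp7, Alpl, Ibsp and Bglap stayed under 1 FPKM in all 18. In 6 libraries (Balb/c ATRX CT mice 43 and 45, Balb/c ATRX KD mice 56 and 60, NSG ATRX CT mouse 3 and NSG ATRX KD mouse 27) long transcripts read relatively higher than in the rest. The slope of each library along transcript length was 0.10 to 0.21 log2 units per doubling of length in these 6 and -0.15 to -0.00 in the other 12. Results that rest on these libraries are given with and without them.

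Sterol synthesis starts from acetyl-CoA, runs through mevalonate to farnesyl pyrophosphate and squalene, and ends in cholesterol. The same acetyl-CoA is carboxylated to malonyl-CoA and built into palmitate, which is then lengthened and desaturated. Both routes are transcribed under the sterol regulatory element-binding proteins. SREBP-2, the product of Srebf2, acts mainly on sterol genes and SREBP-1, the product of Srebf1, mainly on fatty acid genes. When membranes hold enough sterol, Insig1 keeps the SREBP precursors in the endoplasmic reticulum, and when sterol is short they move to the Golgi apparatus, are cleaved and enter the nucleus. There they bind sterol regulatory elements, often beside sites of NF-Y and Sp1.

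Promoters of 25 of the 32 genes were found in the RefSeq table (build GRCm38.p6), as 250 bases before and 50 bases after a start site. The 7 others, Fdft1, Sqle, Fdps, Stard4, Scd1, Scd2 and Fads1, had no entry in the table. A CCAAT box, the core of an NF-Y site, was found on either strand for 21 of the 25 genes, against 41.1% of all 27025 genes in the table. The GGGCGG core of an Sp1 site was found for 20, against 38.2% of all genes. The sterol regulatory element of the LDL receptor type, TCACNCCAC, was found for 1 gene, Hmgcs1, 137 bases before its start, against 1.44% of all genes. The E-box CACGTG, which SREBP-1 can also bind, was found for 4 genes (Dhcr7, Hsd17b7, Insig1 and Sc5d), against 8.09%. These are matches of letters and not bound sites, and a window without a match says nothing about the factor. In Hmgcs1 the element and the CCAAT boxes did not overlap. Shown here are 3 promoters of sterol genes that rose with the knock-down in NSG mice (Hmgcs1, Mvd and Cyp51), 1 of a fatty acid gene that rose without any such box (Elovl6), and 1 of a sterol gene that had 2 CCAAT boxes and did not pass the test (Ebp). Each is written 5′ to 3′ along the gene's own strand, with the element and the CCAAT boxes (CCAAT, or ATTGG where the box lies on the other strand) in capitals.
Hmgcs1, chr13:119690101-119690400, plus strand: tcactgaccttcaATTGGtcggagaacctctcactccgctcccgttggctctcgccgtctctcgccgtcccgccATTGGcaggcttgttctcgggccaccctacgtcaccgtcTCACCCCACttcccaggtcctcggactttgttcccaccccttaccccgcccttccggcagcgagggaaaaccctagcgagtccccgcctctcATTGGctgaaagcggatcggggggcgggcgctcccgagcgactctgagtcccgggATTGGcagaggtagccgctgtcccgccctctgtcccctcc
Mvd, chr8:122443373-122443672, minus strand: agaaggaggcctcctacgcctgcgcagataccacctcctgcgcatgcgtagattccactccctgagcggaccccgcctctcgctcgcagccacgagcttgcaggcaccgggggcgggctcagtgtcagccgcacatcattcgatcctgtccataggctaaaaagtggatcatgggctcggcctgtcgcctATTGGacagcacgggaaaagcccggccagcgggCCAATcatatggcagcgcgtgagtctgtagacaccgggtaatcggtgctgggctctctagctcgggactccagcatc
Cyp51, chr5:4104648-4104947, minus strand: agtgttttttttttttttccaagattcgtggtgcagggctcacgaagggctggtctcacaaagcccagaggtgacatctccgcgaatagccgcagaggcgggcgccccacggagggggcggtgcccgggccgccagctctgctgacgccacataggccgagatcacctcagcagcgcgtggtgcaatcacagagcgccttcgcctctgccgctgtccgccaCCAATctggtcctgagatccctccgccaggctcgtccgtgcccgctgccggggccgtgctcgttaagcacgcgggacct
Elovl6, chr3:129532136-129532435, plus strand: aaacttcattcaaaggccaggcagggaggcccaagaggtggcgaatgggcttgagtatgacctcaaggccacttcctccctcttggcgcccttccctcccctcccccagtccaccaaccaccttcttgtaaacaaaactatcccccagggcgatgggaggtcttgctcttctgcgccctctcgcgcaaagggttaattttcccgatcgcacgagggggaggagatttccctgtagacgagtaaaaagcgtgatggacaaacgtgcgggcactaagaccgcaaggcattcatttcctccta
Ebp, chrX:8193463-8193762, minus strand: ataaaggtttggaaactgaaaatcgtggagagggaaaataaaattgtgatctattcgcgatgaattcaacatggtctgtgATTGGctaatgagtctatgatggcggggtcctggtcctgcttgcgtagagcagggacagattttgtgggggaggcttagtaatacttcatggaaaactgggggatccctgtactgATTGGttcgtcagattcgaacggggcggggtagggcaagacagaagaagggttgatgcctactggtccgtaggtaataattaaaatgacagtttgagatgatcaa

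Over the 18 tumors, Fdps, the farnesyl pyrophosphate synthase, had the highest mean of the 32 genes, 185 FPKM. Scd2 (75.3), Msmo1 (73.7), Acly (61.9), Scd1 (54.9) and Sqle (48.9) followed. The lowest means were those of Tm7sf2 (4.85), Dhcr7 (5.06) and Idi1 (6.62), and even these were above 53.3% of all genes. From the lowest to the highest tumor, Scd1 spanned a ratio of 6.96, Fads2 6.90 and Cyp51 5.30. Ggps1, which makes geranylgeranyl pyrophosphate for protein prenylation, spanned only 1.71, and Ebp, a sterol isomerase, 1.80. On the map of all 32 genes the highest cell is Scd1 in NSG ATRX KD mouse 28, 2.14 above the Balb/c ATRX CT mean, followed by Fdps in NSG ATRX KD mice 29 (1.75) and 30 (1.71). On average the NSG ATRX KD tumors were above that mean by 1.04 in the mevalonate rows, 0.76 in the later sterol rows, 0.67 in the regulator rows and 0.50 in the fatty acid rows.

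**Figure D1:**
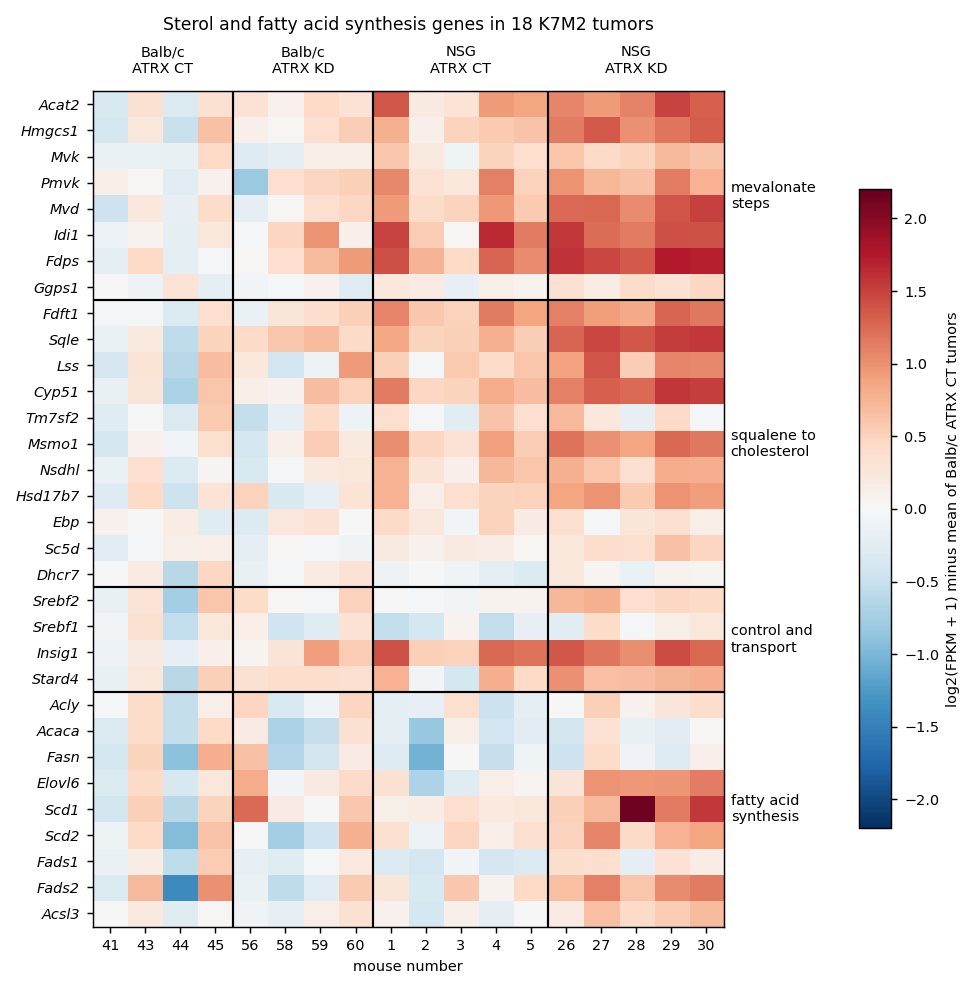
Each cell is 1 gene (row) in 1 tumor (column, by mouse number), colored by its log2(FPKM + 1) minus the mean of the 4 Balb/c ATRX CT tumors; lines separate the 4 groups and the 4 roles. The mean over all 32 genes was 4.14 in Balb/c ATRX CT, 4.28 in Balb/c ATRX KD, 4.45 in NSG ATRX CT and 4.89 in NSG ATRX KD tumors on the log2(FPKM + 1) scale.

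The first comparison asked how these genes differed with the knock-down in NSG mice, which lack lymphocytes. In NSG mice, 10 of the 32 genes rose with the knock-down and 0 fell, where 3.73% of all 14654 genes tested rose and 3.05% fell. The 10 were Sqle, Srebf2, Hmgcs1, Mvd, Elovl6, Cyp51, Acsl3, Fads1, Fads2 and Scd1, with differences between 0.49 and 0.98. Differences were above 0 for 31 of the 32 genes (49.8% of all genes), and the median was 0.43, against -0.00 over all genes. None of the 10 reached a difference of 1 in log2(FPKM + 1), where 0.171% of all genes did upward and 0.293% downward. Mean FPKM itself went from 6.42 to 13.1 for Elovl6 and from 40.1 to 87.3 for Scd1. Groups did not overlap for 8 genes, all higher in ATRX KD tumors (4.36% of all genes), and 0 were lower without overlap (3.14%). At an unadjusted p under 0.05, 20 of the 32 were higher and 0 lower, against 13.8% and 12.5% of all genes. With single tumors left out, the 10 became 2 without ATRX KD mouse 30, 3 without mouse 29, 5 without mouse 28, 4 without ATRX CT mouse 4, 4 without mouse 5 and 6 without mouse 1, and the share of all genes changed in either direction ranged from 0.983% (without ATRX KD mouse 30) to 14.2% (without ATRX CT mouse 3), against 6.78% with all tumors. Sqle and Srebf2 passed with each of the 10 tumors left out, Hmgcs1 with 9, Mvd with 7, Elovl6 with 6, Cyp51 with 5, Scd1 and Acsl3 with 3, and Fads1 and Fads2 with 2. With all 4 groups in the fit 5 of the 32 passed, against 5.47% of all genes. These are whole tumors, so fewer cells of a type and less RNA per cell cannot be told apart.

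Sqle (squalene epoxidase, the first oxygen-adding step of sterol synthesis; chromosome 15, 59315092 to 59331193, mm10, 11 exons) differed with the smallest p of the group. It read 50.4, 38.9, 39.98, 48.2 and 40.8 FPKM in ATRX CT and 68.5, 78.1, 72.3, 82.4 and 83.4 in ATRX KD tumors. Every ATRX KD tumor was above every ATRX CT tumor, and Sqle rose by 0.81 (SE 0.10, adjusted p = 0.00478). Hmgcs1, the synthase that makes HMG-CoA at the start of the mevalonate steps, read 47.1, 29.1, 38.1, 40.6 and 42.1 in ATRX CT and 60.9, 70.4, 54.8, 62.1 and 68.8 in ATRX KD tumors. These groups did not overlap either, and the difference was 0.68 (SE 0.12, adjusted p = 0.0149). Mvd, the decarboxylase that yields isopentenyl diphosphate, read 25.2, 17.2, 18.2, 25.3 and 19.4 against 31.3, 31.6, 27.2, 34.6 and 37.6, again without overlap (difference 0.61, SE 0.13, adjusted p = 0.0240). Cyp51, which demethylates lanosterol, read 35.1, 21.4, 21.8, 27.5 and 25.1 against 34.2, 39.7, 37.7, 47.7 and 45.5. Its groups met, since ATRX CT mouse 1 was above ATRX KD mouse 26, and the difference was 0.64 (SE 0.14, adjusted p = 0.0268).

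The remaining enzymes of these steps were mostly higher without passing the test. Fdps was higher by 0.59 (adjusted p = 0.0636), and Acat2 by 0.45 (adjusted p = 0.195). Of the 75-base windows of their transcripts, 58.5% in Fdps, 44.2% in Acaca, 35.6% in Acat2, 26.6% in Idi1, 25.4% in Fdft1, 17.4% in Tm7sf2 and 11.2% in Hmgcs1 are shared with transcripts of other genes (GENCODE M21), so the levels of these 7 are less certain. Lss, the lanosterol synthase, was higher by 0.57 (adjusted p = 0.0600) and Msmo1, a methylsterol oxidase, by 0.44 (adjusted p = 0.0751). Hsd17b7 was higher by 0.41 (adjusted p = 0.0700) and Sc5d, a sterol desaturase, by 0.29 (adjusted p = 0.0716). The smallest differences in limma were those of Tm7sf2, a sterol reductase, at 0.01 (95% interval -0.42 to 0.45) and of Ebp at -0.05 (95% interval -0.32 to 0.21). In all, 2 of 8 mevalonate genes and 2 of 11 later sterol genes rose, with medians of 0.42 and 0.29.

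Among the regulators, Srebf2 (chromosome 15, 82147269 to 82204960, mm10, 19 exons) rose. It read 27.3, 26.9, 26.5, 29.1 and 29.3 FPKM in ATRX CT and 46.3, 48.4, 36.1, 38.3 and 37.4 in ATRX KD tumors. The ATRX CT values were close to each other and all lay below the ATRX KD values (difference 0.55, SE 0.10, adjusted p = 0.0148). Srebf1 was higher by 0.42 (adjusted p = 0.105), and Stard4, a sterol carrier, by 0.47 (adjusted p = 0.190). Insig1, which holds back the SREBPs and is itself an SREBP target, read 48.9, 26.3, 26.1, 44.3 and 42.3 against 48.1, 41.97, 37.6, 50.2 and 44.5, with wide overlap (0.28, 95% interval -0.12 to 0.67, adjusted p = 0.351).

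Of the 9 fatty acid genes, 5 rose, and these lengthen, desaturate or activate fatty acids. Elovl6, which lengthens palmitate to stearate, read 8.64, 3.74, 5.36, 7.396 and 6.97 FPKM in ATRX CT and 8.34, 14.1, 13.8, 13.9 and 15.6 in ATRX KD tumors. ATRX KD mouse 26 lay far below the other ATRX KD tumors and inside the ATRX CT range, and the difference was 0.95 (SE 0.21, adjusted p = 0.0261). Scd1, which puts the first double bond into stearate, read 37.2, 38.4, 44.5, 39.4 and 40.9 against 49.1, 56.1, 153, 76.3 and 101. The groups did not overlap, the ATRX KD tumors were spread widely with mouse 28 highest, and the difference was 0.98 (SE 0.26, adjusted p = 0.0441). Fads2, the first desaturase on the way to long polyunsaturated fatty acids, read 16.4, 10.5, 20.8, 14.3 and 18.6 against 22.02, 30.4, 21.1, 28.8 and 31.1, without overlap (difference 0.71, SE 0.18, adjusted p = 0.0394). Fads1, the desaturase that acts after it, read 39.2, 37.2, 46.3, 37.2 and 38.6 against 63.6, 62.5, 41.9, 60.4 and 54.3. Its ATRX KD mouse 28 lay inside the ATRX CT range, and the difference was 0.49 (SE 0.12, adjusted p = 0.0368). Acsl3, which activates fatty acids with CoA at lipid droplets, read 8.60, 5.84, 8.71, 6.76 and 7.94 against 9.13, 13.2, 10.99, 12.2 and 13.5, without overlap (difference 0.58, SE 0.13, adjusted p = 0.0306).

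The enzymes that build palmitate itself did not pass the test. Acly, which makes cytosolic acetyl-CoA, was higher by 0.39 (adjusted p = 0.125), Acaca, the acetyl-CoA carboxylase, by 0.22 (95% interval -0.18 to 0.61, adjusted p = 0.480) and Fasn, the fatty acid synthase, by 0.32 (95% interval -0.14 to 0.78, adjusted p = 0.357). Scd2, another stearoyl-CoA desaturase, was higher by 0.48 (adjusted p = 0.0670).

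Marker lists of other cell types and of mitosis were read beside this result. Summed markers of mitosis were 316 to 438 FPKM in ATRX CT and 436 to 513 in ATRX KD tumors (mean log2 higher by 0.35, exact permutation test, two-sided, p = 0.0159, adjusted p = 0.119 over 10 lists), with 3 of 10 markers higher by limma. Endothelial markers summed to 29.1 to 70.6 and 61.4 to 87.5 (exact permutation p = 0.0238, adjusted p = 0.119), with 3 of 10 higher. Macrophage markers summed to 1611 to 2383 and 1252 to 1787 (exact permutation p = 0.0397, adjusted p = 0.132), with 1 of 10 lower. Differences were above 0 for 10 of 10 mitosis, 10 of 10 endothelial and 1 of 10 macrophage markers, against 49.8% of all genes. At an unadjusted limma p under 0.05, 6 of 10 mitosis and 10 of 10 endothelial markers were higher, against 13.8% of all genes. Of the macrophage markers 8 of 10 were lower (12.5% of all genes) and 1 was higher. Adipocytes express Scd1, Elovl6 and Fasn strongly, and adipocyte markers summed to 70.3 to 82.7 in ATRX CT and 52.0 to 353 in ATRX KD tumors (exact permutation p = 0.159), with 0 of 9 tested markers called and no marker at 0 in a whole group. They were at 353, 163 and 174 in ATRX KD mice 28, 29 and 30 and at 78.4 and 52.0 in mice 26 and 27, where Scd1 read 49.1 and 56.1, both above every ATRX CT tumor. Sebocyte markers summed to at most 1.73 in any tumor. The part of these lists in the result was not tested.

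**Figure D2:**
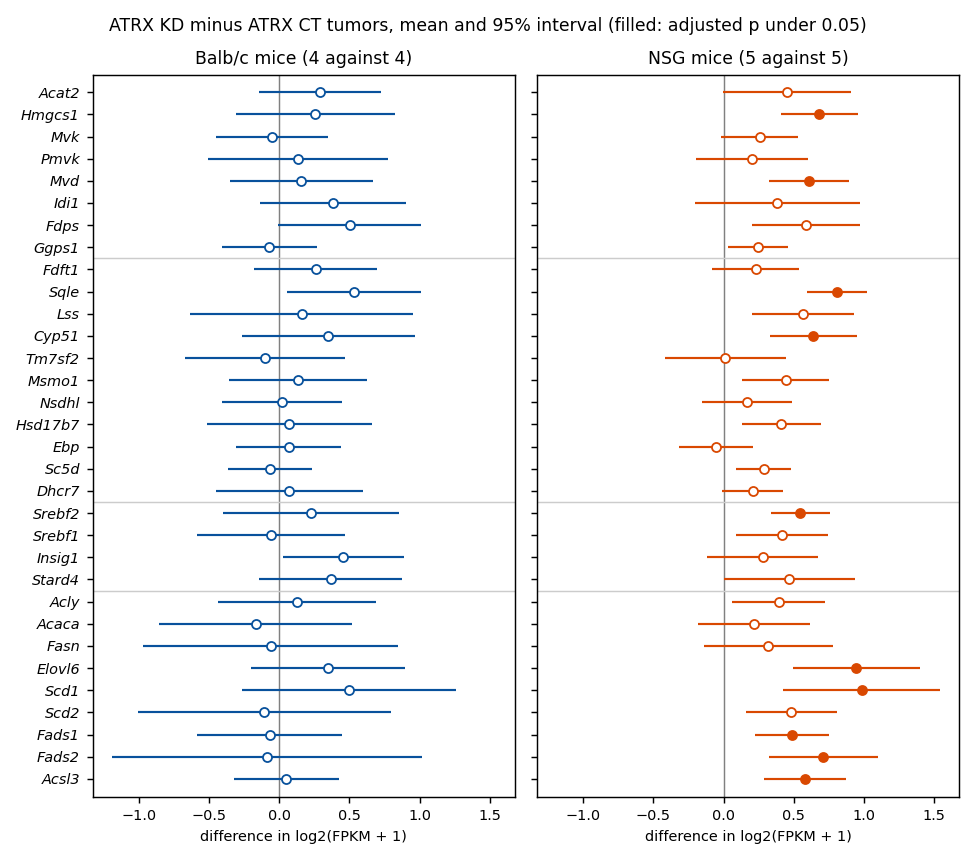
Differences (ATRX KD minus ATRX CT, log2(FPKM + 1)) of the 32 genes in Balb/c (left) and NSG mice (right); points are limma estimates, lines 95% intervals, filled points an adjusted p under 0.05, and gray lines separate the roles. In NSG mice 10 points are filled and 31 lie above 0, while in Balb/c mice 0 are filled and 22 lie above 0.

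Genes of neighboring pathways that are not among the 32 were read from fixed lists in the same NSG fit. Among genes of sterol sensing and uptake, Mbtps1, the site-1 protease that first cuts the SREBPs, rose by 0.48 (limma adjusted p = 0.0291). Mbtps2, the site-2 protease that makes the second cut, fell by 0.37 (adjusted p = 0.0280), and Mylip, a ubiquitin ligase of the LDL receptor induced by the sterol-sensing LXR receptors, fell by 0.71 (adjusted p = 0.0247).

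Of 9 genes of sterol efflux and storage, 0 rose and 2 fell. Abca1, the LXR-induced cholesterol exporter, went from 48.8 ± 21.95 to 20.2 ± 5.93 FPKM (difference -1.19, adjusted p = 0.0231), and Cyp27a1, a hydroxylase that makes an oxysterol, fell by 0.88 (adjusted p = 0.0309). Both are also expressed by macrophages. The summed macrophage markers overlapped between these groups and their difference did not pass (exact permutation test, two-sided, adjusted p = 0.132). By limma, 8 of 10 macrophage markers were lower and 1 higher at an unadjusted p under 0.05. The part of macrophages in Abca1 and Cyp27a1 was not tested. Of 16 other fatty acid synthesis genes, 3 rose, namely Aacs, which makes acetoacetyl-CoA (0.65), Slc25a1, the mitochondrial citrate carrier (0.45), and Tecr, which closes each lengthening cycle (0.32). Of 8 triglyceride genes only Mgll, the monoacylglycerol lipase, passed, higher by 0.85 (adjusted p = 0.0196), and of 14 fatty acid oxidation genes 0 passed.

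The same comparison was then made in Balb/c mice, which have lymphocytes and also differ from NSG mice in strain. There 0 of the 32 genes changed (limma adjusted p = 0.999 for each), where 0% of all 14701 genes rose and 0.0068%, 1 gene, fell. At an unadjusted p under 0.05 there were 2 of the 32, both higher, against 1.72% of all genes higher and 2.42% lower. Differences were above 0 for 22 of the 32 genes (49.2% of all genes), with a median of 0.13. Single tumors moved this median: it was 0.01 without ATRX CT mouse 44 (16 of 32 above 0) or ATRX KD mouse 60 (17 above 0), 0.06 without ATRX CT mouse 41 (20) and 0.07 without ATRX KD mouse 59 (22), and it was 0.24 without ATRX CT mouse 45 (28). No gene of the 32 had groups that did not overlap, against 1.25% of all genes higher and 1.93% lower.

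The 5 smallest p-values belonged to sterol genes and their regulators. Sqle read 24.8, 31.97, 18.4 and 39.2 FPKM in Balb/c ATRX CT and 37.2, 42.3, 45.3 and 37.3 in ATRX KD tumors, and differed by 0.54 (95% interval 0.06 to 1.01). The ATRX KD values lay close together in the upper part of the ATRX CT range and beyond it. Insig1 read 16.4, 20.8, 15.7 and 19.4 against 18.8, 22.1, 34.9 and 26.97, with a difference of 0.46 (95% interval 0.02 to 0.89). Fdps differed by 0.50 (-0.01 to 1.01), Idi1, the isopentenyl diphosphate isomerase, by 0.38 (-0.14 to 0.90), and Stard4 by 0.37 (-0.14 to 0.87). Of the genes that rose in NSG mice, Hmgcs1 differed here by 0.26 (-0.31 to 0.82), Srebf2 by 0.23 (-0.40 to 0.86), Fads1 by -0.07 (-0.58 to 0.45) and Fads2 by -0.09 (-1.19 to 1.02). Intervals were wider than in NSG mice, reaching to either side by a median of 0.52 against 0.32. The interval of 4 genes reached a difference of 1 upward. Adipocyte markers summed to 82.8 to 96.4 FPKM in ATRX CT and 127 to 248.9 in ATRX KD tumors, without overlap. Their mean log2, which was the value tested, did overlap (exact permutation test, two-sided, p = 0.229). Of 8 markers tested in limma, 8 were above 0 (49.2% of all genes), with a median of 0.61, and 0 passed. The part of adipocytes in Scd1, at 0.50 (-0.26 to 1.26), was not tested.

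Whether the knock-down difference itself differed between hosts was tested as an interaction, taken as the difference in Balb/c minus that in NSG mice. It was below 0, thus smaller in Balb/c mice, for 29 of the 32 genes (50.6% of all genes were above 0), with a median of -0.31, and 0 genes passed, neither of the 32 nor of all 14803 tested (0%). At an unadjusted p under 0.05, 0 of the 32 were above 0 (4.45% of all genes) and 3 were below 0 (5.86%): Acsl3 at -0.53 (adjusted p = 0.407), Sc5d at -0.35 (adjusted p = 0.419) and Fads1 at -0.56 (adjusted p = 0.463). Next came Ggps1 at -0.31 (adjusted p = 0.531) and Elovl6 at -0.60 (adjusted p = 0.562). Without the 6 libraries that read long transcripts higher, the median was -0.03 and 18 of the 32 lay below 0. Of the 9 fatty acid genes 0 were then above 0 (median -0.39). Above 0 were 8 of 11 later sterol genes (median 0.23), 4 of 8 mevalonate genes (0.09) and 2 of 4 regulators (0.22). This fit held 2 Balb/c tumors per group, and the difference between roles was not tested. A difference between hosts was thus not shown.

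Averaged over both hosts, with host as a term, 2 of the 32 genes rose with the knock-down, against 1.27% of all genes higher and 0.79% lower, and 31 were above 0 (49.6% of all genes). Sqle was higher by 0.69 (SE 0.11, adjusted p = 0.00543), and it passed with each of the 18 tumors left out in turn. Elovl6 was higher by 0.68 (SE 0.17, adjusted p = 0.04997, just inside the threshold). Fdps (0.55, adjusted p = 0.0515), Hmgcs1 (0.49, adjusted p = 0.0761) and Scd1 (0.77, adjusted p = 0.0769) lay just outside. Without Balb/c ATRX CT mouse 45 the count was 7, and it was 3 without ATRX CT mouse 43 or ATRX KD mouse 56 and 2 without Balb/c ATRX KD mice 58 or 59 or NSG mice 1 or 26, and 1 without each of the remaining tumors. The average uses the tumors of both single-host comparisons and adds no independent evidence. The 2 single-host comparisons share no tumors, and 21 of the 32 genes (65.6%) were above 0 in both, against 27.5% of all genes.

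**Figure D3:**
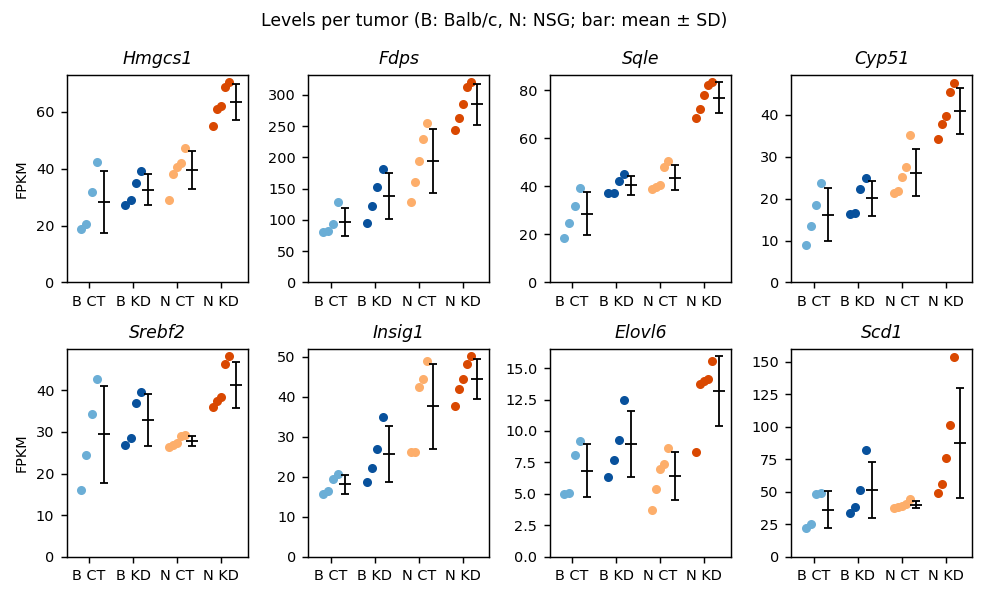
FPKM of 8 of the genes in each tumor, one panel per gene, with the 4 groups on the horizontal axis (B, Balb/c; N, NSG; CT, ATRX CT; KD, ATRX KD); points are tumors in order of value, and black bars show the mean and SD. Sqle is 28.6, 40.5, 43.7 and 77.0 FPKM on average from left to right, and Fdps is 96.2, 138, 194 and 285.

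The host comparison asked how the genes differed between NSG and Balb/c tumors of the same cells. Among ATRX CT tumors 3 of the 32 genes were higher in NSG mice and 0 lower, against 1.09% of all 14828 genes higher and 2.09% lower. Fdps read 81.01, 129, 82.7 and 92.7 FPKM in Balb/c and 255, 159.9, 129, 229.8 and 194 in NSG mice, and was higher by 0.98 (SE 0.22, adjusted p = 0.0346). Fdft1, the squalene synthase, read 10.1, 10.3, 8.27 and 13.9 against 23.2, 16.2, 15.2, 24.2 and 19.8 (difference 0.83, SE 0.18, adjusted p = 0.0306). Insig1 read 16.4, 20.8, 15.7 and 19.4 in Balb/c mice, and the NSG values given above were all higher (difference 0.98, SE 0.20, adjusted p = 0.0274). None of these 3 genes overlapped between hosts, nor did Pmvk, the phosphomevalonate kinase, and Mvd, which makes 5 of 32 higher and 0 lower, against 2.85% and 4.72% of all genes. The 3 calls became 5 without NSG mouse 3, and 2 without Balb/c mouse 44 or 45 or NSG mouse 2. They became 1 without Balb/c mouse 43 and 0 without Balb/c mouse 41 or NSG mouse 1, 4 or 5. The share of all genes changed in either direction moved too, against 3.18% with all tumors. It was 5.58% without NSG mouse 3, 6.56% without Balb/c mouse 44 and 1.86% without Balb/c mouse 43. Pmvk was higher by 0.65 (adjusted p = 0.121) and Msmo1 by 0.65 (adjusted p = 0.0924).

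In this comparison 24 of the 32 genes were above 0 (48.7% of all genes). The median was 0.66 for the mevalonate genes, all 8 above 0, and 0.45 for the later sterol genes, 10 of 11 above 0. It was -0.08 for the fatty acid genes, 3 of 9 above 0 and 0 called. The difference between roles was not tested, and the fatty acid genes lay mostly above 0 once the slope was handled: 8 of 9 with a median of 0.16 in the low-slope libraries, and 8 of 9 with a median of 0.12 with the slope as a covariate. The mevalonate genes then had medians of 1.00 and 0.77. Fasn differed by -0.38 (95% interval -1.13 to 0.36) and Srebf1 by -0.31 (-0.75 to 0.12), while Srebf2 differed by 0.01 (-0.50 to 0.52). Without the 3 ATRX CT libraries that read long transcripts higher, 10 of the 32 genes were higher, against 2.08% of all genes changed in either direction, and the median moved from 0.29 to 0.76. With the slope as a covariate instead, 0 passed, against 2.87% of all genes.

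Among ATRX KD tumors 16 of the 32 genes were higher in NSG mice and 0 lower, against 0.839% of all 14669 genes higher and 2.8% lower. They were 6 of 8 mevalonate genes (Acat2, Hmgcs1, Mvk, Mvd, Idi1 and Fdps), 7 of 11 later sterol genes (Fdft1, Sqle, Cyp51, Msmo1, Nsdhl, Hsd17b7 and Sc5d), 2 of 4 regulators (Insig1 and Stard4) and 1 of 9 fatty acid genes (Fads2). Differences were above 0 for 30 genes (52.9% of all genes). Groups did not overlap for 18 genes that were higher (3.05% of all genes) and for 0 that were lower (5.08%). Differences of at least 1 in log2(FPKM + 1) were reached by Mvd, Fdps, Cyp51 and Fads2 (0.266% of all genes, and 1.12% downward). Leaving out single tumors gave 8 calls without Balb/c mouse 58 or NSG mouse 29 or 30 and 10 without Balb/c mouse 56 or NSG mouse 27. The share of all genes changed in either direction then ranged from 2.31% (without NSG mouse 30) to 4.04% (without NSG mouse 26). It was 3.64% with all tumors. Without Balb/c mice 56 and 60 and NSG mouse 27, whose libraries read long transcripts higher, 13 of the 32 genes changed. The share of all genes was then 2.86%, and 30 of the 32 lay above 0. With the slope as a covariate instead, 20 changed, against 6.87% of all genes. Acat2, Hmgcs1, Mvd, Fdps, Fdft1, Sqle, Cyp51 and Msmo1 passed with each of the 9 tumors left out, and Stard4 with none.

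The smallest p was that of Sqle, whose Balb/c and NSG values in ATRX KD tumors are given above and did not overlap. It was higher by 0.91 (SE 0.10, adjusted p = 0.000528). Hmgcs1 read 29.1, 27.2, 34.9 and 39.3 FPKM in Balb/c ATRX KD tumors, all below the NSG values (difference 0.95, SE 0.13, adjusted p = 0.00194). Mvd read 10.7, 12.97, 16.7 and 17.7 in these Balb/c tumors and was higher in NSG mice by 1.13 (SE 0.15, adjusted p = 0.00211). Cyp51 read 16.7, 16.4, 24.9 and 22.2 and was higher by 1.00 (SE 0.15, adjusted p = 0.00384). Fdps read 95.7, 122, 153 and 182 in Balb/c and 285, 262, 243, 320.2 and 312 in NSG mice (difference 1.07, SE 0.18, adjusted p = 0.00879). In each of these genes the lowest NSG tumor was above the highest Balb/c tumor.

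Smaller differences among the 16 were those of Stard4 (0.41, adjusted p = 0.0473), Sc5d (0.49, adjusted p = 0.0343), Mvk, the mevalonate kinase (0.63, adjusted p = 0.0151), and Nsdhl, a sterol dehydrogenase (0.65, adjusted p = 0.0422). Acat2, which joins acetyl-CoA units, was higher by 0.90 (adjusted p = 0.00302), Idi1 by 0.97 (adjusted p = 0.0255), Msmo1 by 0.96 (adjusted p = 0.0109), Fdft1 by 0.80 (adjusted p = 0.0144), Hsd17b7 by 0.79 (adjusted p = 0.0423) and Insig1 by 0.80 (adjusted p = 0.0264). Fads2 read 12.2, 8.88, 11.3 and 20.7 in Balb/c mice and was higher by 1.00 (SE 0.22, adjusted p = 0.0328). In contrast, Fasn differed by -0.00 (95% interval -0.59 to 0.59), Dhcr7, a reductase of the last steps, by -0.01 (-0.31 to 0.29), Acaca by 0.07 (-0.44 to 0.59) and Acly by 0.13 (-0.29 to 0.54).

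The 2 host comparisons share no tumors. The 3 genes called among ATRX CT tumors were all among the 16 called among ATRX KD tumors, thus 3 of 3 and 3 of 16, and 24 of the 32 genes (75%) were above 0 in both, against 32.6% of all genes. Outside the 32, Acss2, an acetyl-CoA synthetase (0.55), and Slc25a1 (0.57) were higher in NSG ATRX KD tumors and Cyp27a1 was lower (-0.85), while 0 genes of the neighboring lists passed among ATRX CT tumors. Beside the host, summed T cell markers were 30.8 to 53.9 FPKM in Balb/c and 1.42 to 7.16 in NSG tumors. Endothelial markers were lower in NSG mice by 0.74 in ATRX CT and 0.59 in ATRX KD tumors (exact permutation p = 0.0476 each, adjusted p = 0.159 and 0.238), and mitosis markers by 0.37 (p = 0.0317, adjusted p = 0.159) and 0.04 (p = 0.730). Their part in the host difference was not tested.

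**Figure D4:**
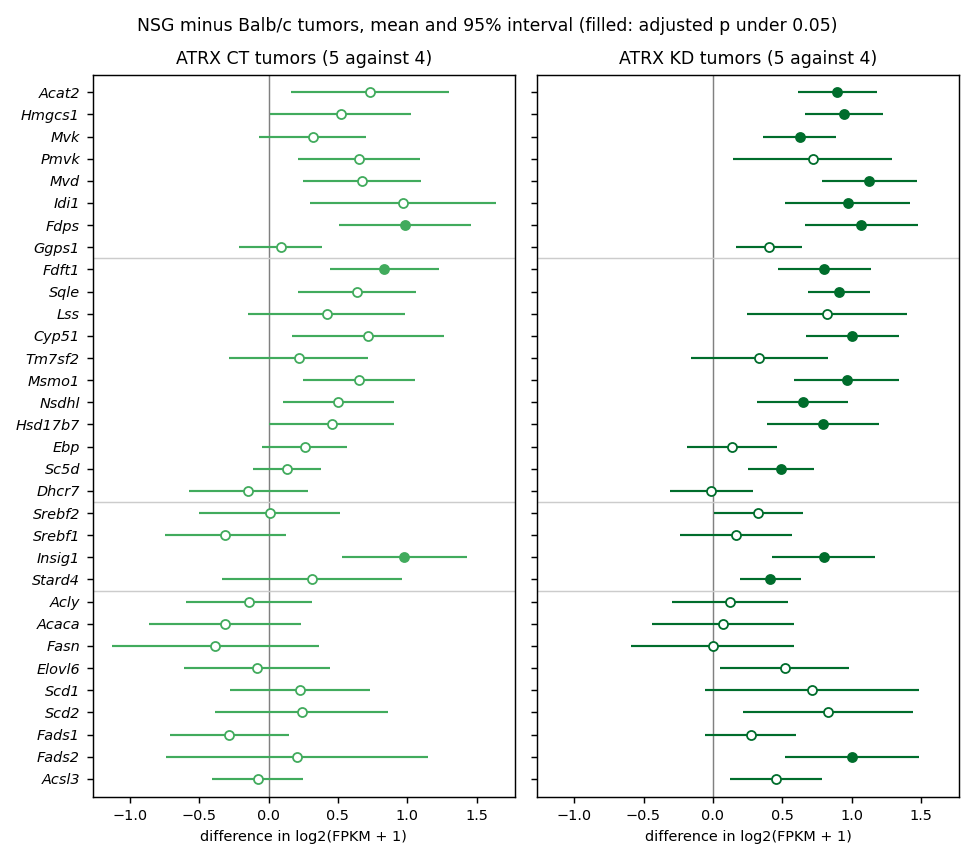
Differences (NSG minus Balb/c, log2(FPKM + 1)) of the 32 genes among ATRX CT (left) and ATRX KD tumors (right); points are limma estimates, lines 95% intervals, filled points an adjusted p under 0.05, and gray lines separate the roles. On the left 3 points are filled, and on the right 16 are, of which 13 are mevalonate or sterol genes and 1 is a fatty acid gene.

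Within the groups the genes varied more in Balb/c than in NSG mice. Their median SD over tumors was 0.40 and 0.33 log2 units in Balb/c ATRX CT and ATRX KD tumors and 0.27 and 0.19 in NSG ATRX CT and ATRX KD tumors, against 0.23, 0.25, 0.21 and 0.17 for all genes. In the same order it was 0.30, 0.29, 0.27 and 0.17 for mevalonate and sterol genes. For fatty acid genes it was 0.50, 0.48, 0.30 and 0.27. Of the 6 libraries that read long transcripts higher, 4 were from Balb/c and 2 from NSG mice, and their part in this spread was not tested. Once group means were removed, pairs of mevalonate and sterol genes had a median r of 0.55 over the 18 tumors and pairs of fatty acid genes 0.65, while pairs across both had 0.28 and pairs of all genes 0.00. The libraries differed in the slope along transcript length described above. With the slope removed the medians were 0.68, 0.45, 0.52 and 0.00, and what else moves with the slope was not tested.

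Several fatty acid genes followed the slope. Across tumors, with group means removed, Acaca and Acly had an r of 0.89 to the slope, Fasn 0.88 and Srebf1 0.87. In contrast, Ebp had -0.92, Ggps1 -0.77, Fdft1 -0.20 and Sqle 0.21. Fads2, with a transcript of 1508 bases, had 0.69, and Cyp51, with 4353 bases, had 0.22. Whether transcript length or another difference between these tumors underlies the correlations was not tested. Fasn, whose transcript of 9938 bases is long, read 28.02, 52.2, 19.4 and 65.1 FPKM in the Balb/c ATRX CT mice 41, 43, 44 and 45 and 58.4, 23.2, 27.6 and 41.8 in the Balb/c ATRX KD mice 56, 58, 59 and 60. The 4 high values of the 8 were those of mice 43, 45, 56 and 60. In Balb/c mice 11 of the 32 genes were higher in all of these 4 libraries than in the other 4 (15.5% of all genes): Lss, Hsd17b7, Srebf2, Srebf1, Acly, Acaca, Fasn, Elovl6, Scd1, Scd2 and Fads2. Another 2 of the 32 were lower in all of these 4 libraries (19.3% of all genes). The slopes did not separate the study's groups (exact permutation tests, two-sided, p = 0.657 and 0.619 for the knock-down in Balb/c and NSG mice, and 0.175 and 0.667 for the host in ATRX CT and ATRX KD tumors).

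**Figure D5:**
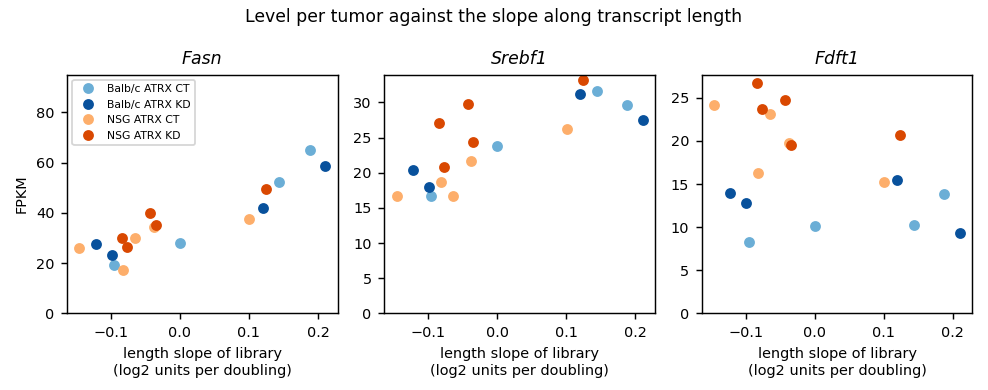
FPKM of Fasn, Srebf1 and Fdft1 in each tumor (vertical axes) against the slope of the library along transcript length (horizontal axes, log2 units per doubling of length), colored by group. Fasn and Srebf1 rise with the slope (r of 0.88 and 0.87 with group means removed), and Fdft1 does not (r of -0.20).

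Among Balb/c libraries with a low slope (ATRX CT mice 41 and 44, ATRX KD mice 58 and 59) the median knock-down difference of the 32 genes was 0.41, with 28 above 0, and Sqle differed by 1.00. Among those with a high slope (ATRX CT mice 43 and 45, ATRX KD mice 56 and 60) the median was -0.09, with 9 above 0, and Sqle differed by 0.07. With 2 tumors against 2 these are values only. In a fit of the low-slope Balb/c libraries alone, 0 of the 32 passed. In NSG mice the median was 0.39 in the 8 low-slope libraries, with 30 above 0, and 0.54 between the 2 high-slope libraries, with 32 above 0. In a fit of those 8 libraries 12 of the 32 genes rose, against 12.7% of all genes changed in either direction.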

How the data were processed

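RNA of 18 K7M2 tumors was read from ribo-depleted, stranded libraries. Per the paper's methods and the submitters' processing notes, read pairs were aligned by the authors with STAR 2.6.0c (mm10), freed of low-quality reads and duplicates, and summarized over RefSeq genes by Cufflinks 2.2.1. The authors deposited log2(FPKM + 1) values for 20970 entries, of which 92 were spike-ins and left out. Base 2 was settled from the values, since FPKM times transcript length then summed to 1.10 to 1.13 times the total it should reach, against 8.45 to 11.2 with the natural log. FPKM values move with a library's bias along transcript length. Whole reads could not be recovered (37.0% to 47.5% of low values lay within 0.1 of a whole fragment), so no count test was run and the estimated depths are approximate. Transcript lengths and positions came from the deposited annotation.

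Group differences in log2(FPKM + 1) were fitted gene by gene with limma 3.58.1 under R 4.3.3 (lmFit, then eBayes with trend). Genes entered where their mean over the fitted tumors reached 0.1 FPKM, and Benjamini-Hochberg adjustment ran over all genes tested. Each 2-group comparison used its own tumors. The steps were tested on simulated data. For single values and marker lists, exact permutation tests (two-sided) were run in SciPy 1.17.1 (Python 3.11.15). The slope of a library was that of log2(FPKM + 1), relative to the mean of all libraries, on log2 transcript length, and libraries above 0.09 were treated as high. The 32 genes, the pathway and marker lists and the tests were chosen with earlier results of these data known. Named were members with an adjusted p under 0.05, or the 5 smallest p-values where fewer passed, at most 5 called genes of each pathway list, and Atrx. Other members were named after their values were seen. Some genes of the pathway lists are not reported here. Alternatives were a pseudocount of 0.1, other filters, median-ratio scaling, removal of the length trend and library weights. Others were a fit of all groups, a 2-fold threshold, and leaving out each tumor. The 2-fold threshold was a difference of at least 1 in log2(FPKM + 1). The fits with library weights also used the robust form of eBayes, so the part of either cannot be told apart. The slope as a covariate and the fits of low-slope libraries were chosen after seeing the data.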

Additional observations from a re-analysis of the deposited data

Results flagged for a closer look

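In groups of 4 or 5 tumors, 4 values of the 32 genes lay far from the others of their group by Dixon's test, out of 128 groups checked, where about 6.4 would by chance. Mvk in Balb/c ATRX CT mouse 45 was at 4.65 in log2(FPKM + 1), or 24.0 FPKM, while the other 3 tumors were at 15.5 to 15.8. Pmvk in Balb/c ATRX KD mouse 56 was at 3.05, or 7.29 FPKM, with the others at 17.96 to 19.99. Elovl6 in NSG ATRX KD mouse 26 was at 3.22, or 8.34 FPKM, with the others at 13.8 to 15.6. Fads1 in NSG ATRX CT mouse 3 was at 5.56, or 46.3 FPKM, with the others at 37.2 to 39.2. Mice 45, 56 and 3 were among the 6 libraries with a high slope along transcript length, and mouse 26 was not.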

How the results depend on the processing

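No difference of a called gene changed its sign under any alternative run. The knock-down in NSG mice, with 10 of the 32 genes changed, gave 17 with library weights and robust eBayes (36.9% of all genes then changed). It gave 19 with the slope as a covariate (17% of all genes). It gave 5 in a fit of all groups (5.47%), 0 at 2-fold, and 2 to 14 as single tumors were left out (0.983% to 14.2%). Averaged over both hosts, 2 genes became 1 with no filter and with median-ratio scaling, 5 with the length trend removed (3.99%), 14 with weights (19.7% of all genes), 9 with the slope as a covariate (11.2%), 10 in low-slope libraries (6.54%) and 0 at 2-fold, and 1 to 7 with single tumors left out (0.81% to 2.84%, against 2.06% with all). The host difference in ATRX CT tumors, 3 genes, became 1 with no filter (2.05% of all genes), 17 with weights (22.2%) and 0 with the slope as a covariate (2.87%). It became 10 in low-slope libraries (2.08%), 7 in a fit of all groups (5.59%) and 0 at 2-fold. With single tumors left out it was 0 to 5 (1.86% to 6.56%, against 3.18% with all). The host difference in ATRX KD tumors, 16 genes, became 13 in low-slope libraries (2.86%), 20 with the slope as a covariate (6.87%), 23 with weights (12.1%) and 4 at 2-fold. With single tumors left out it was 8 to 13 (2.31% to 4.04%, against 3.64% with all). The interaction, 0 genes, became 2 with weights (13.4% of all genes). It stayed at 0 with each single tumor left out, and so did the knock-down in Balb/c mice. The cause of these shifts was not tested. No paired analysis was possible because the groups share no mouse numbers. The called genes were also counted once under each alternative, with the 2-fold threshold as 1 of the alternatives. For the NSG knock-down, the call was kept in 138 of these cases and lost in 62. The numbers were 37 and 17 for the average over hosts, 31 and 26 for the host in ATRX CT tumors, and 225 and 79 for the host in ATRX KD tumors. The 95% intervals, which reached to either side by a median of 0.30 to 0.60 in log2(FPKM + 1) depending on the comparison, limit what these group sizes could show.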
